A study of Zea mays with 4 samples.

Results

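Very short loci of the maize (Zea mays) genome are described here in developing endosperm, the kernel tissue that stores starch and protein. They were chosen by locus length and by level: a locus entered when its listed span was below 600 bp, its mean over the 4 libraries was at least 1 and below 100 FPKM, and it lay on chromosomes 1 to 10 or on a scaffold rather than in the mitochondrial or plastid genome. The rule took 366 of the 29642 listed loci, and since it used their mean FPKM, their levels are given as a description. FPKM is the number of sequenced fragments scaled by transcript length and by library size. The libraries were rea1 polysome-bound RNA, WT (wild-type) polysome-bound RNA, rea1 total RNA and WT total RNA, all from endosperm at 15 days after pollination. Polysome-bound RNA is what pelleted with ribosomes through a sucrose cushion, and total RNA came from the cleared extract of an equal amount of powder. The labels name neither the strain nor the gene behind rea1. The series' design text speaks of triplicates, but each file holds 1 value per locus, so there was 1 library per group, no replicate spread and no test. Higher and lower therefore describe these 4 libraries.

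Short annotated loci in plants are a mixed class. They include genes for small secreted proteins such as lipid transfer proteins and defensins, for small ribosomal proteins and for other small proteins, and also genes in pieces, transposon remnants and non-coding transcripts. An mRNA is loaded with ribosomes along its coding sequence, so a short coding sequence has room for few of them, and RNA with few or no ribosomes sediments less readily than heavily loaded RNA. The files give positions on B73 RefGen_v3 without gene names, so no locus below has a name or a known role, and neither the tissue label nor the mutated gene could be checked against marker genes. In RNA from whole endosperm, fewer cells of a type and less RNA per cell cannot be told apart.

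Of the 939 loci under 600 bp, 17 were organellar, 535 nuclear loci had a mean under 1 FPKM and 21 nuclear loci had a mean of at least 100 FPKM, which leaves the 366. Their lengths ran from 157 to 599 bp with a median of 447 bp, and 73 were under 300 bp. The limits divide a continuum. Just inside the length limit were chr1:294245228-294245826 and chr8:117630364-117630962, both 599 bp, with means of 7.89 and 4.42 FPKM. Just outside were chr4:139688034-139688634 and chr5:183803965-183804565, both 601 bp, with means of 1.20 and 17.3 FPKM. At the lower limit of level, chr9:148490607-148491075 entered with a mean of 1.003 FPKM and chr2:188535263-188535722 with 1.02 FPKM, while chr2:115698302-115698763 stayed out with 0.997 FPKM and chr9:18772171-18772734 with 0.964 FPKM. At the upper limit scaffold_369:81-586 had a mean of 97.6 FPKM and chr1:204630296-204630708 had 96.7 FPKM, and the next loci outside had 108 FPKM (chr9:152703158-152703638) and 112 FPKM (chr2:207242499-207243083).

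A span made up of coding sequence alone has a length divisible by 3, and such lengths were frequent among these loci. Of the 366, 197 (53.8%) had one, against 33.3% of the 16438 longer nuclear loci in the same range of mean FPKM and 35.2% of the 1267 among these of 600 to under 1200 bp. The share was 74.0% under 300 bp, 53.5% from 300 to under 450 bp and 45.8% from 450 to under 600 bp. These shares take the starts in the files as counted from 0; counted from 1, 22.4% of the very short loci were divisible by 3. None of the 366 shared its coordinates with another entry, against 1.18% of the loci of 600 to under 1200 bp and 5.88% of all longer ones. Apart from shared coordinates, no overlap with another listed locus was found among the 366 or among the 16438 longer loci. Its absence is therefore not particular to the very short loci. In distance to the nearest listed locus, 50 lay under 1 kb away, 144 between 1 and 10 kb and 160 at 10 kb or more, and the other 12 were alone on a scaffold. They were spread over all chromosomes, at 1.63% (chromosome 2) to 2.66% (chromosome 8) of the loci in that range of level, and made up 12 of 67 such loci on scaffolds (17.9%). Only pairs of neighbouring members were found when gaps of up to 50 kb were allowed, 13 pairs in all and no run of 3.

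How small a value above 0 can be depended on length. In every library the values above 0 had a sharp lower edge that climbed as loci became shorter, as the plot of listed values by length shows. A curve fitted through the lowest values put this edge at 0.12 FPKM in rea1 polysome-bound RNA, 0.133 FPKM in WT polysome-bound RNA, 0.178 FPKM in rea1 total RNA and 0.177 FPKM in WT total RNA for a 600 bp locus. For a 300 bp locus it was 0.586, 0.759, 0.971 and 0.779 FPKM in the same libraries. Under 250 bp few loci define the edge and the curve is approximate there, as are multiples of it. The lowest values listed from 200 to under 250 bp were 1.43 FPKM in rea1 polysome-bound, 2.02 FPKM in WT polysome-bound, 2.60 FPKM in rea1 total and 2.46 FPKM in WT total RNA. From 500 to under 600 bp they were 0.115, 0.118, 0.152 and 0.125 FPKM in the same libraries. The curve lay at 2.86, 4.13, 6.08 and 3.78 FPKM at 200 bp and at 1.11, 1.52, 2.02 and 1.45 FPKM at 250 bp, so in total RNA it set rea1 further above WT than the listed minima did. Read totals are unknown here, so the edge was not turned into fragment counts.

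**Figure D1:**
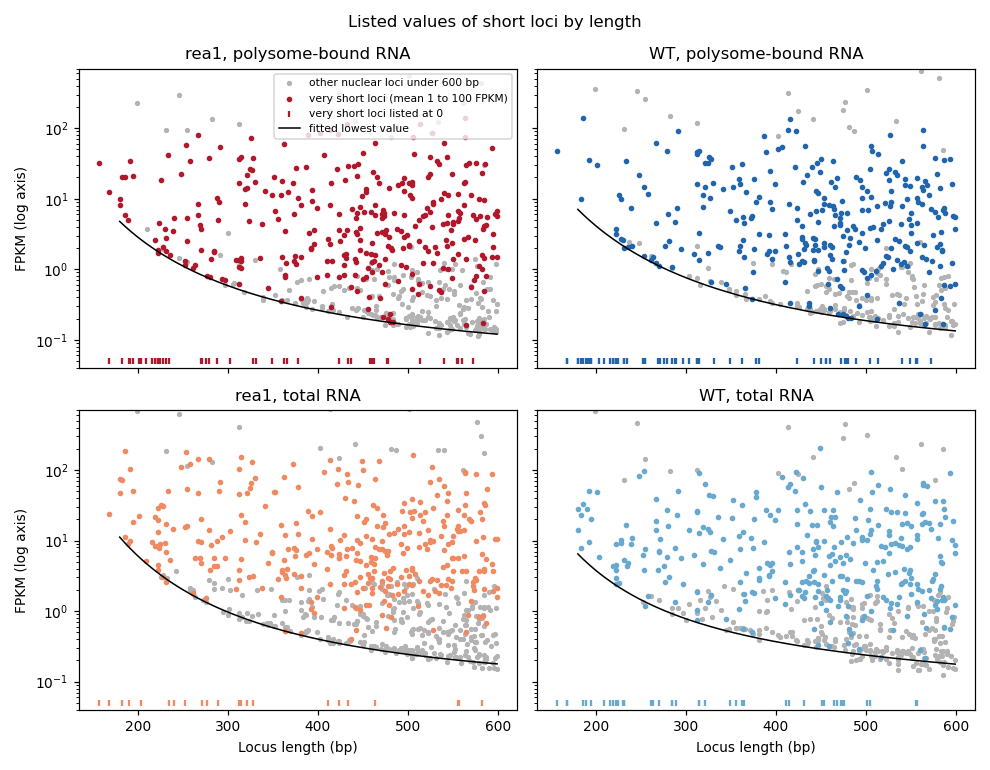
FPKM (log axis) against locus length in bp, 1 panel per library; coloured points are the 366 very short loci, grey points other nuclear loci under 600 bp, ticks at the bottom mark very short loci listed at 0, and the line is the fitted lowest value (drawn from 180 bp). Loci under 250 bp that are above 0 start at a value that is moderate for a 600 bp locus, and ticks crowd at the short end.

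Measured against this edge, many very short loci rested on little. Averaged over the 4 libraries, 159 of the 366 (43.4%) lay under 10 times the lowest value for their length and 51 lay under 3 times. Of the 73 loci under 300 bp, 62 (84.9%) lay under 10 times, against 27.9% of those of 450 to under 600 bp. Above 0, the median very short locus stood at 16.3 times the lowest value in rea1 polysome-bound RNA, 15.1 times in WT polysome-bound RNA, 16.7 times in rea1 total RNA and 12.5 times in WT total RNA. A locus of under 200 bp can reach a mean of 1 FPKM on 1 library at that edge: chr1:205193999-205194166 (168 bp) was listed at 23.7 FPKM in rea1 total RNA, 1.37 times the lowest value, and at 0 in the other 3 libraries. Another locus of that length, chr1:205062144-205062311, had 12.3 FPKM in polysome-bound RNA of rea1 and 0 in the other 3.

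Zeros were frequent among very short loci. In all, 107 of the 366 (29.2%) were listed at 0 in at least 1 library, against 138 of the 16438 longer loci in the same range of mean FPKM (0.840%). At means of 10 to 100 FPKM the shares were 7.27% of 110 very short loci and 0.142% of 6349 longer ones. The share was 69.9% under 300 bp, 21.1% from 300 to under 450 bp, 17.9% from 450 to under 600 bp and 4.42% from 600 to under 1200 bp. By library, 44 very short loci were at 0 in rea1 polysome-bound RNA, 66 in WT polysome-bound RNA, 22 in rea1 total RNA and 43 in WT total RNA, so zeros were more frequent in polysome-bound than in total RNA of each genotype and more frequent in WT than in rea1 of each fraction. Of the very short loci with a 0, 84.1% had a mean under 10 times the lowest value for their length. A locus with zeros passed the minimum only through the libraries where it was high, so the main counts below are also given for the 259 loci above 0 in all 4 libraries.

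**Figure D2:**
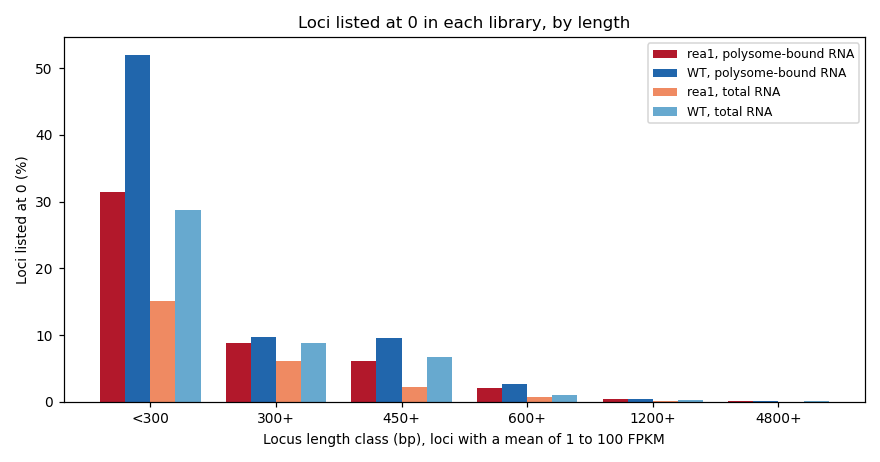
Share (%) of loci listed at 0 in each of the 4 libraries, by locus length class in bp (each label is the class's lower limit, up to the next), for nuclear loci with a mean of 1 to 100 FPKM. Under 300 bp, 31.5% were at 0 in rea1 polysome-bound, 52.1% in WT polysome-bound, 15.1% in rea1 total and 28.8% in WT total RNA; from 1200 bp upwards every bar is under 0.5%.

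Some zeros came in matched pairs. The 6 very short loci at 0 in both total libraries and in no other included chr1:57351153-57351473 (321 bp), at 13.97 FPKM in rea1 and 14.6 FPKM in WT polysome-bound RNA. Also among them were scaffold_167:1-157, the shortest of all, at 31.7 FPKM in rea1 and 47.0 FPKM in WT polysome-bound RNA, and scaffold_216:559-1115 at 5.37 and 4.55 FPKM in rea1 and WT polysome-bound RNA. Conversely, 14 were at 0 in both polysome libraries and above 0 in both total libraries. Of these chr5:30327174-30327551 (378 bp) was listed at 12.4 FPKM in rea1 total RNA and 49.0 FPKM in WT total RNA, 26.6 and 117 times the lowest value for its length. Apart from scaffold_167:1-157, whose values were 3.20 and 3.11 times the lowest value, these named loci lay well above the edge in the libraries where they were listed above 0. Among the 16438 longer loci, 10 were at 0 in both total libraries only and 37 in both polysome libraries only. The loci chr1:57351153-57351473 and scaffold_216:559-1115 were picked after their values were seen.

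Total RNA is taken first, rea1 set against WT. Very short loci were spread widely in both directions around a typical shift. On log2(FPKM + 1), where ratios of low values come out smaller than they are, 132 of the 366 (36.1%) were higher in rea1 by 2-fold or more and 40 (10.9%) lower by as much, and the median log2 ratio was 0.52. Among all 17682 tested loci, those whose mean reached 1 FPKM, 26.3% were higher, 1.91% were lower and the median was 0.62. The interquartile range of the very short loci was -0.11 to 1.36, while that of the 16438 longer loci in the same range of level was 0.24 to 0.99. Among the 259 loci above 0 in all 4 libraries 30.5% were higher and 7.72% lower, and among the 144 whose mean was at least 20 times the lowest value 30.6% were higher and 10.4% lower.

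FPKM is a share of its library, and how this split falls varied with the scaling. Median-of-ratios scaling brings the median of all tested loci to -0.01, and 67 very short loci were then higher and 69 lower in rea1 total RNA by 2-fold or more, 18.3% and 18.9%. All tested loci then had 6.62% higher and 5.79% lower. The median of the very short loci lay 0.10 (log2) below that of all tested loci as deposited and at the same level after rescaling. Each scaling divides a library by a constant. On log2(FPKM + 1) this moves ratios of high values nearly alike and ratios that hold a low value or a 0 by less. Under median of ratios, the log2 ratio of chr4:223252539-223252910 went from 3.36 to 2.63. That of chr3:119194704-119194893, with a 0 in rea1 total RNA, went from -4.88 to -5.09. By the shares given above, the very short loci remained more widely spread than all tested loci after rescaling.

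**Figure D3:**
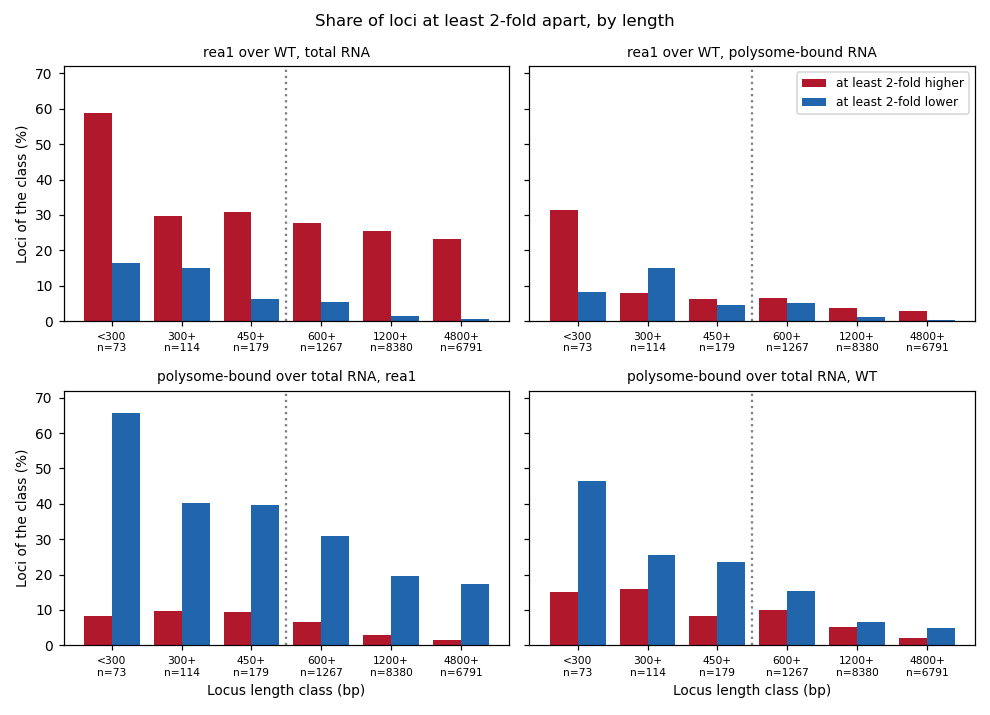
Share (%) of loci at least 2-fold higher (red) or lower (blue) on log2(FPKM + 1), by locus length class in bp (each label is the class's lower limit, up to the next) with n below each, for nuclear loci with a mean of 1 to 100 FPKM; the dotted line marks 600 bp. In each of the 4 comparisons the shares of loci at least 2-fold higher plus lower are largest under 300 bp and smallest at 4800 bp or more.

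Within the 366, the ratios were highest under 300 bp. The median log2 ratio in total RNA there was 1.27, with 58.9% of 73 at least 2-fold higher and 16.4% lower. It was 0.40 for the 114 loci of 300 to under 450 bp and 0.48 for the 179 of 450 to under 600 bp. Of the 73, 51 were at 0 in at least 1 library and passed the minimum only through the libraries where they were high. The length classes were not counted apart for loci above 0 in all 4 libraries. The lowest values listed from 200 to under 250 bp, 2.60 FPKM in rea1 and 2.46 FPKM in WT total RNA, were close to each other. The fitted curve set the genotypes further apart there, and when its length dependence was made alike in the 4 libraries, a step chosen after the data were seen, the median of loci under 300 bp was 0.87, with 42.5% higher and 17.8% lower. What part the lowest value has in these ratios was not tested.

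Single loci show the range; here and below the extremes are taken among loci whose mean reached 5 FPKM and which were above 0 in all libraries, unless a 0 is stated. The highest ratio was at chr4:124503351-124503608 (258 bp), with 124 FPKM in rea1 total RNA and 1.65 FPKM in WT total RNA, a log2 ratio of 5.55. The WT value is 1.28 times the lowest value for that length, so the size of this ratio rests on a value at the edge. In polysome-bound RNA this locus had 33.9 FPKM in rea1 and 11.6 FPKM in WT. Next was chr4:223252539-223252910 (372 bp), with 121 FPKM in rea1 total RNA and 10.9 FPKM in WT total RNA, a log2 ratio of 3.36. Its WT value was 25.02 times the lowest value, so both of its values lie well above the edge. In the opposite direction, chr6:140536934-140537348 (415 bp) had 8.38 FPKM in rea1 total RNA and 62.8 FPKM in WT total RNA, a log2 ratio of -2.77. For chr10:78411016-78411503 (488 bp) total RNA held 2.43 FPKM in rea1 and 20.9 FPKM in WT (log2 ratio -2.68), while polysome-bound RNA held 3.77 FPKM in rea1 and 3.75 FPKM in WT. At this locus the genotypes were far apart in total RNA and close together in polysome-bound RNA. With zeros, chr3:119194704-119194893 was listed at 28.4 FPKM in WT total RNA and at 0 elsewhere.

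The second comparison asks the same of polysome-bound RNA. Here the very short loci were centred on no difference: 43 (11.7%) were higher in rea1 by 2-fold or more, 31 (8.47%) lower by as much, and the median log2 ratio was 0.01, against 3.96% higher, 1.34% lower and a median of 0.24 among all tested loci. Of the 43 higher loci, 23 were under 300 bp. Among the loci above 0 in all 4 libraries the order of the counts turned, with 15 higher (5.79%) and 23 lower (8.88%), and likewise 16 higher and 17 lower among the 207 loci whose mean was at least 10 times the lowest value. Under median of ratios these counts were 34 and 39 of the 366 (9.29% and 10.7%), beside 1.91% higher and 2.66% lower among all tested loci, where the order turned too. The median was then -0.03 for the very short loci and 0.00 for all tested loci, so their distance as deposited varied with the scaling. Loci at 0 in both polysome libraries have a ratio of exactly 0 here. They were 14 at 0 in no other library, 12 also at 0 in WT total and 6 also at 0 in rea1 total RNA.

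The locus with the lowest ratio was again chr6:140536934-140537348, with 16.7 FPKM in rea1 and 134 FPKM in WT polysome-bound RNA, a log2 ratio of -2.93. It was 69.7 and 470 times the lowest value in those libraries, and it was lower in rea1 by a similar amount in both fractions. The locus chr3:218853868-218854053 (186 bp) had 20.3 FPKM in rea1 and 139 FPKM in WT polysome-bound RNA (log2 ratio -2.71), and went the other way in total RNA, with 184 FPKM in rea1 and 32.9 FPKM in WT (2.45). Although its mean of 94.0 FPKM was among the highest of the 366, these values were only 5.02, 23.3, 19.97 and 6.05 times the lowest value in rea1 polysome-bound, WT polysome-bound, rea1 total and WT total RNA. The highest ratios were at chr4:5515981-5516247 (267 bp), with 8.50 FPKM in rea1 and 1.22 FPKM in WT polysome-bound RNA (2.10), and at chr9:147332976-147333229 (254 bp), with 57.6 and 14.5 FPKM in rea1 and WT (1.92). The first of these had a WT value 1.05 times the lowest value and is 1 of 4 very short loci within 50 kb of a locus whose mean reached 1000 FPKM; whether it shares reads with that neighbour was not tested. Listed at 0 in WT polysome-bound RNA, chr8:171154894-171155088 (195 bp) had 20.9 FPKM in rea1, 6.48 times the lowest value. It is another of those 4 loci near an abundant one, and shared reads were not tested there either. Listed at 0 in rea1, chr9:151106512-151106712 (201 bp) had 29.7 FPKM in WT polysome-bound RNA, 7.38 times the lowest value.

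**Figure D4:**
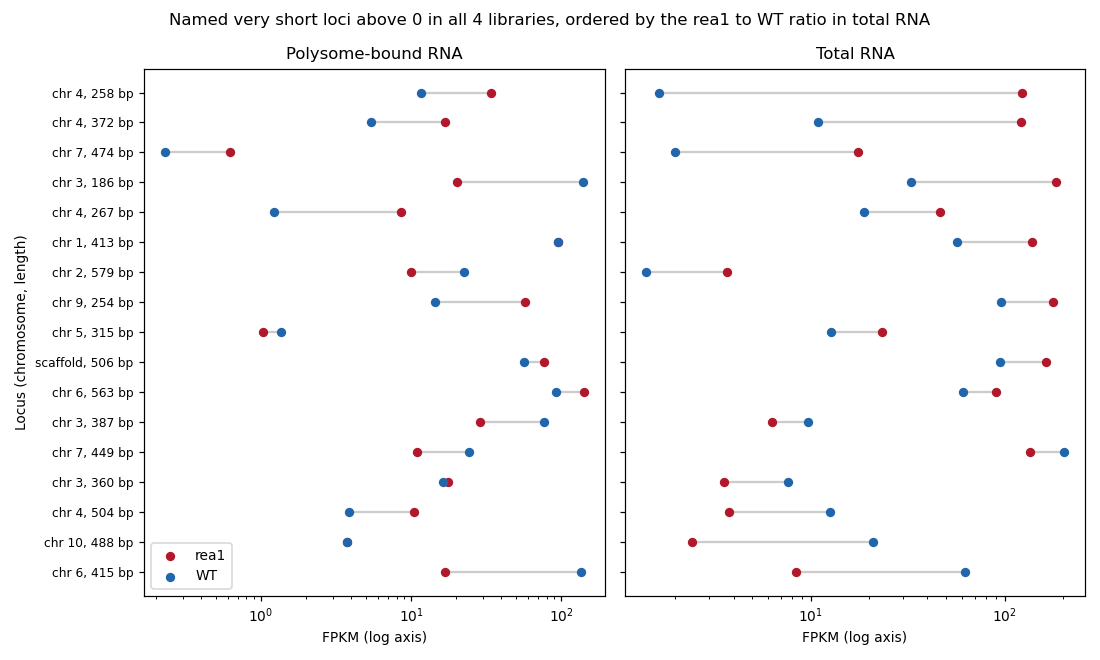
FPKM (log axis) of 17 named very short loci above 0 in all 4 libraries, in polysome-bound RNA (left panel) and total RNA (right panel); red points are rea1 and blue points WT, 1 library each, and rows run by the rea1 to WT ratio in total RNA. The 415 bp locus of chromosome 6 in the bottom row has its rea1 point far left of its WT point in both panels, and the 186 bp locus of chromosome 3 has its points in opposite order in the panels.

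The genotype comparisons of both fractions share no library. Of the very short loci, 24 were higher by 2-fold or more in rea1 in each fraction, which is 18.2% of those higher in total RNA and 55.8% of those higher in polysome-bound RNA; the shares among all tested loci were 9.34% and 61.9%. Among the loci above 0 in all 4 libraries 7 were higher in each fraction, 8.86% of the 79 higher in total and 46.7% of the 15 higher in polysome-bound RNA. Of these 24, 17 were listed at 0 in some library and 16 were under 300 bp. The 6 that were above 0 throughout and had a mean of at least 10 times the lowest value included chr9:9362939-9363265 (327 bp), with 25.4 FPKM in rea1 and 10.2 FPKM in WT polysome-bound RNA and 129 and 13.1 FPKM in rea1 and WT total RNA. Another was chr8:93429523-93429954 (432 bp), with 113 FPKM in rea1 and 55.3 FPKM in WT polysome-bound RNA and 88.4 and 32.7 FPKM in rea1 and WT total RNA. Lower in both were 12, which is 12 of the 40 lower in total RNA and 38.7% of those lower in polysome-bound RNA, beside 24.9% and 35.4% among all tested loci. Of the loci above 0 in all 4 libraries 7 were lower in both, 7 of 20 and 30.4% of 23. They included chr10:110105805-110106399 (595 bp), with 3.21 FPKM in rea1 and 15.9 FPKM in WT polysome-bound RNA and 1.96 and 10.3 FPKM in rea1 and WT total RNA. The loci chr9:9362939, chr8:93429523 and chr10:110105805 were picked from these lists after their values were seen.

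Polysome-bound RNA was next set against total RNA of the same genotype. Each library has its own FPKM total, so this ratio is not the fraction of a transcript found on polysomes. Very short loci were shifted towards total RNA in both genotypes. In rea1, 34 (9.29%) were higher in polysome-bound RNA by 2-fold or more and 165 (45.1%) lower by as much, and the median log2 ratio was -0.84, against 2.91% higher, 20.3% lower and a median of -0.47 among all tested loci. In WT, 44 (12.02%) were higher, 105 (28.7%) were lower and the median was -0.23, against 4.51% higher, 6.97% lower and a median of -0.06. Scaling altered the size of the shift in rea1 but not its direction: under median of ratios 45 were higher and 115 lower and the median was -0.44, beside 6.74% higher, 8.13% lower and a median of -0.01 among all tested loci. In WT 50 were then higher and 104 lower and the median was -0.16, beside 5.67%, 6.58% and 0.01. Among the 259 loci above 0 in all 4 libraries, 7.34% were higher and 39.0% lower in rea1, and 9.27% were higher and 22.8% lower in WT.

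The median ratio was lowest under 300 bp, where 69.9% of loci were at 0 in at least 1 library. Loci with a 0 passed the minimum only through the libraries where they were high, and zeros were more frequent in polysome-bound than in total RNA. The medians of this class are therefore given as a description. The shift was not computed by length for loci above 0 in all 4 libraries. Under 300 bp the median log2 ratio was -1.80 in rea1 and -0.71 in WT, from 300 to under 450 bp -0.80 and -0.07, from 450 to under 600 bp -0.71 and -0.32, and from 600 to under 1200 bp -0.54 and -0.11. In WT the medians did not follow length steadily, and that of 300 to under 450 bp was at the level of the longer loci (-0.07). From 200 to under 250 bp the lowest listed values were 1.43 FPKM in polysome-bound and 2.60 FPKM in total RNA of rea1, and 2.02 FPKM in polysome-bound and 2.46 FPKM in total RNA of WT. With the length dependence of the fitted curve made alike in the libraries, the medians under 300 bp were -1.47 in rea1 and -1.23 in WT. Among loci of 450 to under 600 bp they were then -0.71 and -0.39. Among the 144 very short loci with a mean of at least 20 times the lowest value, 39.6% were at least 2-fold lower in rea1 and 23.6% in WT.

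Loci whose length was divisible by 3 and the others shared this shift. In rea1, 48.7% of the 197 divisible by 3 and 40.8% of the 169 others were lower in polysome-bound RNA by 2-fold or more, and in WT 33.5% and 23.1%. Lengths divisible by 3 were most frequent under 300 bp (74.0%), where 65.8% of loci were lower in rea1 and 46.6% in WT. Divisibility and length were not separated here. Whether the lengths divisible by 3 mark translated sequence was not tested.

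The lists of both genotypes overlapped, and these comparisons share no library either. In both genotypes 73 loci were lower in polysome-bound RNA by 2-fold or more, 44.2% of the rea1 list and 69.5% of the WT list, beside 24.4% and 70.9% among all tested loci. Among the loci above 0 in all 4 libraries 41 were, 40.6% of the 101 in rea1 and 69.5% of the 59 in WT. Of the 73, 32 were above 0 throughout with a mean of at least 10 times the lowest value. An example of high level is chr7:89122466-89122914 (449 bp), with 10.96 FPKM in polysome-bound and 135 FPKM in total RNA of rea1, and 24.2 and 203 FPKM in polysome-bound and total RNA of WT. Its log2 ratios were -3.50 in rea1 and -3.02 in WT, and every one of its values was at least 54.3 times the lowest value. The lowest ratios in rea1 were at chr5:18239498-18239812 (315 bp), with 1.04 FPKM in polysome-bound and 23.4 FPKM in total RNA (-3.58), and at chr7:33014432-33014905 (474 bp), with 0.625 and 17.5 FPKM in polysome-bound and total RNA (-3.51). Their polysome values in rea1 were 2.06 and 3.46 times the lowest value.

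In both genotypes 16 loci were higher in polysome-bound RNA by 2-fold or more, 47.1% of the rea1 list and 36.4% of the WT list, beside 48.5% and 31.4% among all tested loci. Among the loci above 0 in all 4 libraries 8 were, 42.1% of the 19 in rea1 and 33.3% of the 24 in WT. The 6 loci at 0 in both total libraries, described above, all belong to the 16 and reached the minimum only through polysome-bound RNA. Among those above 0 throughout, chr3:34681198-34681584 (387 bp) had 28.6 FPKM in polysome-bound and 6.30 FPKM in total RNA of rea1, and 77.1 and 9.68 FPKM in polysome-bound and total RNA of WT, log2 ratios of 2.02 and 2.87. The highest ratio in rea1 was at chr3:11013041-11013400 (360 bp), with 17.6 FPKM in polysome-bound and 3.57 FPKM in total RNA (2.03). The highest in WT was at chr2:163636206-163636784 (579 bp), with 22.4 FPKM in polysome-bound and 1.41 FPKM in total RNA (3.28). The locus chr3:31051453-31051780 (328 bp) had 37.4 FPKM in rea1 and 36.9 FPKM in WT polysome-bound RNA, and in total RNA was listed at 0 in rea1 and at 7.23 FPKM in WT.

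**Figure D5:**
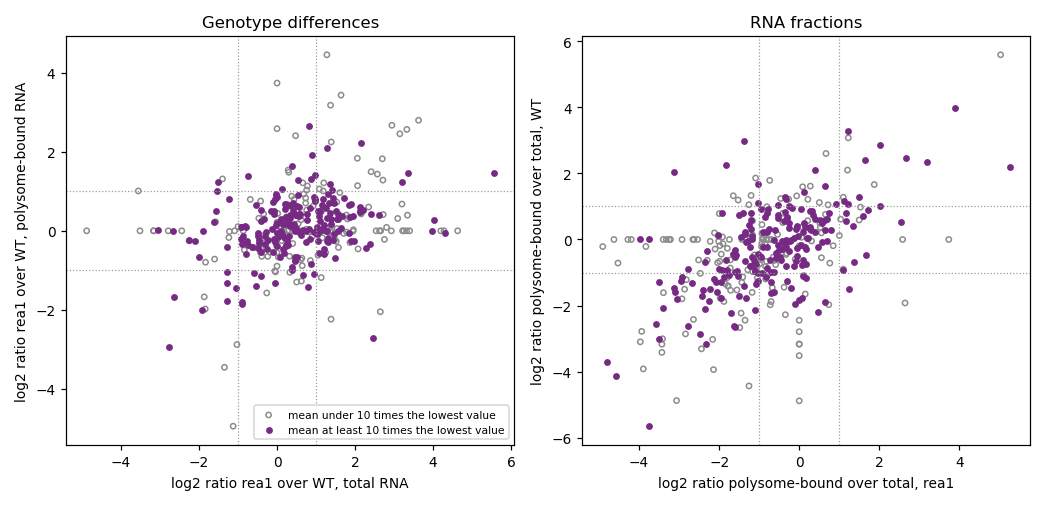
Log2 ratios on log2(FPKM + 1) of the 366 very short loci. Left, rea1 over WT in total RNA (horizontal) and in polysome-bound RNA (vertical); right, polysome-bound over total RNA in rea1 (horizontal) and in WT (vertical); filled points have a mean of at least 10 times the lowest value for their length (207 loci), open points less (159 loci), and dotted lines mark 2-fold. In the right panel the lower left corner, at least 2-fold lower in both genotypes, holds 73 loci and the upper right corner 16; points aligned at 0 are loci listed at 0 in both libraries of 1 ratio.

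Last, the polysome-to-total ratio itself was compared, rea1 against WT. It was higher in rea1 by 2-fold or more for 43 very short loci (11.7%) and lower by as much for 120 (32.8%), with a median of -0.39 (log2), against 2.05% higher, 15.5% lower and a median of -0.37 among all tested loci. Under median of ratios the counts were 63 and 84 and the median was 0.00, beside 4.74% higher, 6.67% lower and a median of 0.02 among all tested loci. Of the loci above 0 in all 4 libraries 7.34% were higher and 29.3% lower. The lowest changes were at chr3:218853868-218854053 (-5.16) and chr4:124503351-124503608 (-4.08), whose values are given above. The highest were at chr4:173587297-173587800 (504 bp), with 10.4 FPKM in rea1 and 3.85 FPKM in WT polysome-bound RNA and 3.80 and 12.6 FPKM in rea1 and WT total RNA (2.73), and at chr10:78411016-78411503 (2.68). All 4 values at the chromosome 4 locus of 504 bp were at least 15.8 times the lowest value.

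Of the 5 most abundant very short loci, those at chr3:218853868-218854053 and chr7:89122466-89122914 are described above, and the other 3 had values closer to each other. At scaffold_369:81-586 (506 bp) the values were 76.2 FPKM in rea1 and 56.4 FPKM in WT polysome-bound RNA, and 163 FPKM in rea1 and 94.8 FPKM in WT total RNA. At chr6:117409899-117410461 (563 bp) they were 141 FPKM in rea1 and 92.9 FPKM in WT polysome-bound RNA, and 90.5 and 61.3 FPKM in rea1 and WT total RNA. At chr1:204630296-204630708 (413 bp) they were 95.7 and 95.4 FPKM in rea1 and WT polysome-bound RNA, and 139 and 56.9 FPKM in rea1 and WT total RNA, so the genotypes lay together in one fraction and apart in the other. All 366 loci together held 0.456% of the summed FPKM in rea1 polysome-bound RNA, 0.405% in WT polysome-bound RNA, 0.835% in rea1 total RNA and 0.458% in WT total RNA.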

How the data were processed

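The authors deposited 1 table of FPKM values per locus for each of the 4 libraries, with 1 value per locus, per the file headers. Bowtie 0.12.2 and B73 RefGen_v3 were used, per the submitters' processing notes; the program behind FPKM, its annotation, its length correction and the treatment of replicates are not given in any source used here, and depth is unknown. Starts were read as counted from 0 and are printed from 1. The only gene table used describes another build, so names, sequences, the marker lists and the gene lists were not used. Members and lists were chosen with earlier results of these data known.

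Ratios were taken on log2(FPKM + 1) and loci that differed by 2-fold or more were counted. The lowest value was fitted per library (cubic curve of log2 FPKM on log2 length through the minima of windows of 20 loci above 0 and under 1000 bp). This curve, the length classes and the limits on its multiples were chosen after the data were seen. Named loci are, per comparison, the 2 highest and 2 lowest with a mean of at least 5 FPKM and above 0 in all libraries, 1 each way with a 0, the 5 most abundant, the 3 shortest, those at the limits of the rule, and others marked where they are given. Scalings were median of ratios, an unweighted trimmed mean and equal sums without the 50 most abundant loci. Counting, scaling and the curve were tested on simulated data. Python 3.11.15, numpy 2.4.6, pandas 2.3.3 and matplotlib 3.10.9 were used.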

Additional observations from a re-analysis of the deposited data

Results flagged for a closer look

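At 6 loci above 0 in all libraries the direction differed, by 2-fold or more each way, between RNA fractions or between genotypes. These differences rest on 1 library per group and were not tested. The locus chr3:218853868-218854053 was higher in rea1 total RNA (log2 ratio 2.45) and lower in rea1 polysome-bound RNA (-2.71), and its polysome-to-total ratio was -3.12 in rea1 and 2.05 in WT. The locus chr4:173587297-173587800 went the other way, with -1.5 in total and 1.23 in polysome-bound RNA for rea1 over WT, and polysome-to-total ratios of 1.25 in rea1 and -1.49 in WT. At chr4:124503351-124503608 the polysome-to-total ratio was -1.83 in rea1 and 2.25 in WT, where WT total RNA was 1.28 times the lowest value for that length. The other 3 lay nearer to 2-fold: the polysome-to-total ratio was -1.02 in rea1 and 1.69 in WT at chr4:186448890-186449447 and -1.03 in rea1 and 1.10 in WT at chr7:35365501-35365825, and rea1 over WT was 1.13 in total and -1.18 in polysome-bound RNA at scaffold_148:3-412. These 3 were added after their values were seen.

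Among all 366 very short loci, 4 were higher in rea1 by 2-fold or more in total RNA and lower by as much in polysome-bound RNA, and 3 the reverse. The polysome-to-total ratio was at least 2-fold lower in rea1 and higher in WT for 10, and the reverse for 2. Among those above 0 in all 4 libraries these counts were 2, 1, 4 and 1. Over all 17682 tested loci they were 16, 6, 70 and 10, and over the 16438 longer loci in the same range of level 12, 3, 51 and 7.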

How the results depend on the processing

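Of the shares of the 366 very short loci that were recomputed under each alternative, 35 moved by more than 1.5 times and 119 did not. Leaving out loci that share coordinates or overlap another locus removed none of the 366. Those settings therefore repeated the reported shares and count among the 119. All 180 values of named loci kept their direction. Each named locus was followed in the comparison where it was extreme, so a reversal was unlikely from the start. With a pseudocount of 5 the shares at least 2-fold higher and lower were 18.9% and 5.46% (total RNA, rea1 over WT), 4.10% and 3.01% (polysome-bound RNA, rea1 over WT), 3.28% and 26.2% (polysome over total, rea1), 4.37% and 13.9% (polysome over total, WT), and 5.19% and 16.7% (change of the polysome-to-total ratio). Without a minimum of mean FPKM, over 901 loci, they were 20.5% and 5.99%, 5.88% and 4.11%, 5.11% and 25.6%, 5.88% and 15.8%, and 7.66% and 19.6% in the same comparisons. With a pseudocount of 0.1, 19.4% were higher and 13.1% lower in polysome-bound RNA, and 18.0% higher in the change. In total RNA, higher and lower were 18.3% and 18.9% with median-of-ratios scaling and with the trimmed mean, and 17.2% and 21.0% with equal sums without the 50 most abundant loci, where the change had 18.0% higher and 21.6% lower. Loci above 0 in all 4 libraries had 5.79% higher in polysome-bound RNA and 7.34% higher in the change, and those with a mean of at least 10 times the lowest value (chosen after seeing the data) 7.73% higher in polysome-bound RNA. At a mean of at least 5 FPKM, 14.5% were listed at 0. A larger pseudocount draws ratios of low loci towards 0 by construction, and dropping the minimum adds loci of low level, whose ratios on this scale are small; the cause of the other shifts was not tested. Making the length dependence of the lowest value alike rests on the fitted curve. Neither this step nor leaving out the 4 loci near abundant ones moved a share by over 1.5 times. Both were chosen after seeing the data.

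No paired analysis was possible because there was 1 library per group and the labels give no replicate numbers, so no library was left out either. Under 300 bp, 84.9% of the very short loci have a mean under 10 times the lowest value for their length.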
